A study of Mus musculus with 11 samples.

Results

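The genes described here are 42 genes of the G2 phase and of mitosis, taken from a list of symbols. That list was chosen with earlier results of these data known, so the shares of it called are descriptions and not independent support. A gene was taken where a probe set carried its symbol alone, with the brightest probe set standing for the gene, and 41 of the 42 were measured this way among 19938 genes in all (Ccnb1 was not analysed here). Only Top2a had 2 probe sets. Their transcript levels were read on 11 Affymetrix arrays from 6 populations of C57BL/6J mice. The bone marrow gave HSC (hematopoietic stem cells), LMPP (lymphoid-primed multipotent progenitors) and CLP (common lymphoid progenitors), each on a pair of arrays. The thymus gave ETP (early thymic precursors, 2 arrays) and the later stages called double negative, DN2 with 1 array and DN3 with 2. For these thymic cells the tissue label and the design text say thymus, whereas their descriptions say bone marrow, and the former was followed. No genotype other than the strain and no treatment is named for any group, so C57BL/6J is what all 6 share. No sort gate, no age, and no word on pooling or on separate animals is given for the replicates, so the p-values may measure technical spread only.

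Cells that divide make most of these transcripts late in the cycle, between the end of DNA replication and the exit from mitosis, and resting cells hold few of them. The kinase Cdk1 with its cyclins drives entry into mitosis, further kinases build and check the spindle, kinesin motors move the chromosomes and the anaphase-promoting complex ends mitosis by destroying cyclins and securin. In blood formation, stem cells are known for long resting periods, and the progenitors that follow divide more often. All values are log2 intensities, so a difference of 1 is a doubling of intensity. In a sorted population a smaller share of cells in G2 or mitosis and less of these transcripts per such cell cannot be told apart.

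These genes are known to share promoter elements, so their RefSeq promoter windows were read first. Of the 41 measured genes 36 had a window in the table (build GRCm38.p6), which runs from 250 bases before to 50 bases after the start given for the gene. The elements searched, on both strands, were the cell cycle genes homology region, searched as TTTGAA and separately as TTTAAA, the CCAAT box, known as the binding site of NF-Y, and sites of E2F factors. None of the words contains another. TTTGAA occurred in 27 of the 36 windows (75.0%), against 18.1% of 27025 windows of all genes and 15.2% of the 15614 windows of genes on the array. In 25 of the 36 (69.4%) a copy lay within 50 bases of the start, against 4.92% of all windows, a distance chosen after the positions had been seen. CCAAT occurred in 27 of 36 as well (37.9% of all windows), and 23 of 36 held both TTTGAA and CCAAT (63.9%, against 7.12% of all windows). TTTAAA was found in 7 of 36 (19.4%, against 13.2%), and E2F words (GCGCGAAA, TTTCCCGC or TTTGGCGC) in 4 of 36 (11.1%, against 1.91%). These matches are descriptions of letters and not of bound sites.

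The stretches below show the 150 bases before the start and the first 10 bases from it, for the member of each functional group whose level varied most over the 6 populations. Capitals mark TTTGAA and CCAAT on either strand (TTCAAA and ATTGG on the printed one), and Kif23 and Cenpf carry TTTGAA at position 2. The bases are those of GRCm38.p6 in the direction of transcription, and positions are counted with the start as 0. Mki67 has the same word at -116 and -98, and Ect2 at -114.
Kif23, chr9:61946790-61946949, minus strand: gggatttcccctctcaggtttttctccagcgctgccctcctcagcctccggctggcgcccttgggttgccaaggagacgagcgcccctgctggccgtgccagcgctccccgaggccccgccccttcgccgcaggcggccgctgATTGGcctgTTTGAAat
Ect2, chr3:27153869-27154028, minus strand: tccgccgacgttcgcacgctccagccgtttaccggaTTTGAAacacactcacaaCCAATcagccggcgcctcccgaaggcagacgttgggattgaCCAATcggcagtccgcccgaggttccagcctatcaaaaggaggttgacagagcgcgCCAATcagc
Cenpf, chr1:189688077-189688236, minus strand: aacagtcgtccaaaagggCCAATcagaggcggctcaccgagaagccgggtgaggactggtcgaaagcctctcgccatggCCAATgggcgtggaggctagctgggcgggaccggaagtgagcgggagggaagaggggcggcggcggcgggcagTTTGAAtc
Mki67, chr7:135716370-135716529, minus strand: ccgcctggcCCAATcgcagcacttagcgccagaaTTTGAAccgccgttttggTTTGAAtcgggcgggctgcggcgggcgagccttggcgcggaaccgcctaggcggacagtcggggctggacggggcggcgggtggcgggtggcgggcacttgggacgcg
Bub1b, chr2:118598061-118598220, plus strand: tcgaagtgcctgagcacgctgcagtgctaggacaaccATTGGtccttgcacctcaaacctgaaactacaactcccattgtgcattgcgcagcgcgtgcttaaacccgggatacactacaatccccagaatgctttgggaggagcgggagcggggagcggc
Cdca3, chr6:124830026-124830185, plus strand: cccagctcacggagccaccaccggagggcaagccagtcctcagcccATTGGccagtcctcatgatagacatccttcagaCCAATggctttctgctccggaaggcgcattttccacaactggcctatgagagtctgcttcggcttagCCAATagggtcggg
Kif23 has a single CCAAT box, at -7, while Ect2 has 3, at -96, -55 and 1. Bub1b and Cdca3 hold no TTTGAA in the printed stretch, but their windows hold it further on, at 40 and 30. The window of Ect2 has a further copy at 39.

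Array medians over all probe sets lay between 6.01 and 6.12. Means over known markers followed the labels of HSC and of the thymic populations. The mean over 8 measured HSC markers was 7.39 to 7.62 in HSC and 5.50 to 6.77 elsewhere. That over 10 T lineage markers was 9.82 to 9.85 in DN3, 8.73 in DN2 and 7.08 to 7.34 in ETP, against 5.95 to 6.24 in marrow. Single markers could go otherwise: of the 8 HSC markers 6 had the lower mean in LMPP than in HSC (3 called) and 2 the higher. Markers of other cell types moved between populations too. Over 9 B lineage markers CLP had 7.41 to 7.63 and the other arrays 5.45 to 6.11, and over 8 lymphoid progenitor markers HSC had 6.42 to 6.45 and the others 7.88 to 9.53. LMPP had 8.49 to 8.50 on the latter list, below CLP and DN3 and above ETP and DN2. No marker list was highest in LMPP. Over 9 markers of later thymocytes the range was 5.93 to 6.21 in marrow and 6.55 to 7.11 in thymus. The mean over 14 neutrophil and monocyte markers was 7.18 to 7.56 in HSC and 7.01 to 7.18 in ETP, against 6.32 to 6.41 in LMPP, 5.93 to 6.02 in CLP, 6.06 in DN2 and 5.60 to 5.61 in DN3. In limma 6 of these 14 (42.9%) were lower in LMPP than in HSC, and 4 (28.6%) were higher in ETP than in LMPP. Against ETP, 8 (57.1%) were lower in DN3, and none of the 14 was called the opposite way in any of these comparisons. Of all 19938 genes, 586, 460 and 1310 were called in either direction in these comparisons. Of those called, 42%, 62.4% and 40.8% were higher. Over 9 erythroid markers HSC had 7.22 to 7.26 and the other arrays 6.33 to 6.76. Of these, 2 of 9 (22.2%) were called lower in LMPP than in HSC and none higher. Their part in the results that follow was not tested. Over 10 stromal and epithelial markers the mean was 6.09 to 6.34 on every array, with single calls for Pecam1 (1.00 higher in CLP than in HSC) and Epcam (2.22 higher in DN3 than in ETP and 1.85 higher than in DN2).

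The G2 and mitosis genes were highest in LMPP. Their mean over 41 genes was 9.22 and 9.45 on the 2 LMPP arrays, 9.03 and 8.84 in HSC, 8.82 and 9.04 in CLP, 8.81 and 8.96 in ETP, 9.18 in DN2, and 9.05 and 9.10 in DN3. Both LMPP arrays thus lay above the other 9, DN2 came next, and the HSC, CLP and ETP arrays overlapped. The lower LMPP array (9.22) was closer to the single DN2 array (9.18) than to the other LMPP array (9.45). LMPP and DN2 were not compared in limma, so their order is not settled. LMPP had the highest population mean for 29 of the 41 genes, against 22.9% of all genes, DN2 for 8 (13.5% of all genes), DN3 for 3 and HSC for 1. The lowest mean fell in ETP for 15 genes (14% of all genes), in HSC for 13 (19.3%), in CLP for 8 and in DN3 for 5. For 20 of the 41 both LMPP arrays lay above the other 9, as for 3.63% of all genes. The differences were small, with a median range over population means of 0.59 (0.34 over all genes). In limma's F test over the 6 populations 6 of 41 passed, Cenpf, Ect2, Kif23, Mki67, Prc1 and Ttk, or 14.6% against 12.2% of all genes, so the share called was near the background. That count was 3 without HSC replicate 1 or DN3 replicate 1, and 1 without LMPP replicate 2.

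**Figure D1:**
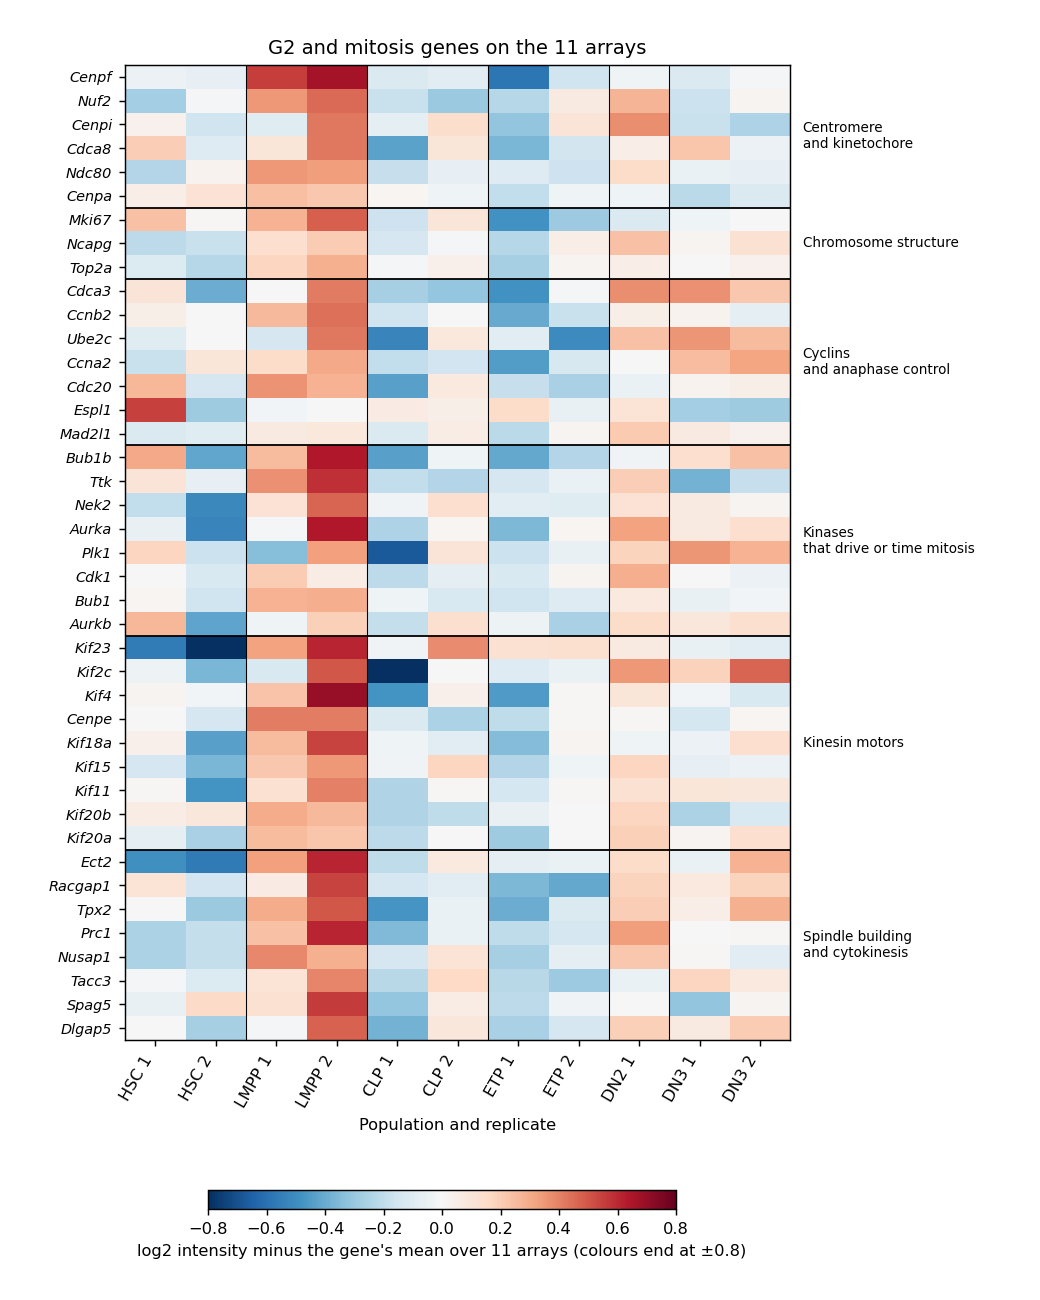
Each row is a gene and each column an array; the colour gives the log2 intensity minus the mean of that gene over the 11 arrays, with genes ordered by function. The LMPP columns are red for most genes, DN2 is red more weakly, and Kif23 and Ect2 are at their lowest in HSC.

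Replicates of a population also differed in 1 direction for most of these genes. In LMPP, CLP and ETP replicate 2 was the higher for 34, 33 and 33 of the 41 genes, with median gaps of 0.22, 0.20 and 0.17, whereas 45.1%, 46.2% and 50.2% of all genes were higher there. In HSC replicate 2 was the higher for 11 of 41, with a median gap of -0.17 (59.3% of all genes were higher there). In DN3 it was the higher for 25, with a median gap of 0.031. The members' median SD between replicates was 0.14 to 0.16 in HSC, LMPP, CLP and ETP and 0.068 in DN3. The 41 genes are therefore not 41 separate observations of a population.

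LMPP lay above HSC for most of these genes. Of the 41 genes 39 had the higher mean in LMPP, and for 29 both LMPP arrays lay above both HSC arrays (21.3% of all genes did so). The median difference, LMPP minus HSC, was 0.36, against 0.034 over all genes. In limma 6 genes rose and none fell (14.6%, against 1.23% of all genes called higher), namely Kif23, Ect2, Cenpf, Nek2, Prc1 and Nusap1. Of these, 3 were among the 8 genes for spindle building and cytokinesis: Ect2, which activates RhoA at the division site, Prc1, which bundles microtubules there, and Nusap1, which binds spindle microtubules. Prc1 stood at 8.86 and 8.92 in HSC and 9.35 and 9.72 in LMPP (0.64 ± 0.15, SE; limma adjusted p = 0.0449), and Nusap1 at 10.25 and 10.31 against 10.89 and 10.79 (0.56 ± 0.13, adjusted p = 0.0422). The other 5 of that group (Dlgap5, Racgap1, Spag5, Tacc3 and Tpx2) had higher means in LMPP without passing.

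Kif23, the motor subunit of centralspindlin, which organises the midzone of the spindle, stood at 9.28 and 8.95 in HSC, 10.16 and 10.45 in LMPP, 9.81 and 10.22 in CLP, 9.96 and 9.97 in ETP, 9.91 in DN2, and 9.78 and 9.75 in DN3. Every other array lay above both HSC arrays. Its difference between LMPP and HSC was 1.19 ± 0.17 (SE; 2.28-fold, limma adjusted p = 0.00334, n = 2 each), between CLP and HSC 0.90 (1.87-fold, adjusted p = 0.00774) and between ETP and HSC 0.85 (1.80-fold, adjusted p = 0.0131). Kif23 was the single one of the 41 genes to pass either of the last 2 comparisons (2.44% each, against 2.68% of all genes higher in CLP and 2.57% higher in ETP). The first call held without any one array. The second was lost without HSC replicate 2 or CLP replicate 2 (highest adjusted p = 0.0629), and the third without HSC replicate 2 or either ETP replicate (highest adjusted p = 0.0851).

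Ect2 stood at 8.38 and 8.31 in HSC, 9.20 and 9.48 in LMPP, 8.67 and 8.95 in CLP, 8.80 and 8.82 in ETP, 9.02 in DN2, and 8.82 and 9.15 in DN3. Like Kif23 it was at its lowest in HSC, without overlap with any other array. It was 0.99 ± 0.15 higher in LMPP than in HSC (SE; 1.99-fold, limma adjusted p = 0.00567, or 0.0551 without LMPP replicate 2), and its difference of 0.46 between CLP and HSC did not pass (adjusted p = 0.133). Racgap1, the other subunit of centralspindlin and the partner that recruits Ect2, was distributed otherwise. It stood at 8.0 and 7.74 in HSC, 7.96 and 8.43 in LMPP, 7.76 and 7.80 in CLP, 7.53 and 7.48 in ETP, 8.07 in DN2, and 7.97 and 8.07 in DN3. Its arrays were lowest in ETP, and HSC and LMPP overlapped (difference 0.33, 95% interval -0.02 to 0.68, adjusted p = 0.404).

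**Figure D2:**
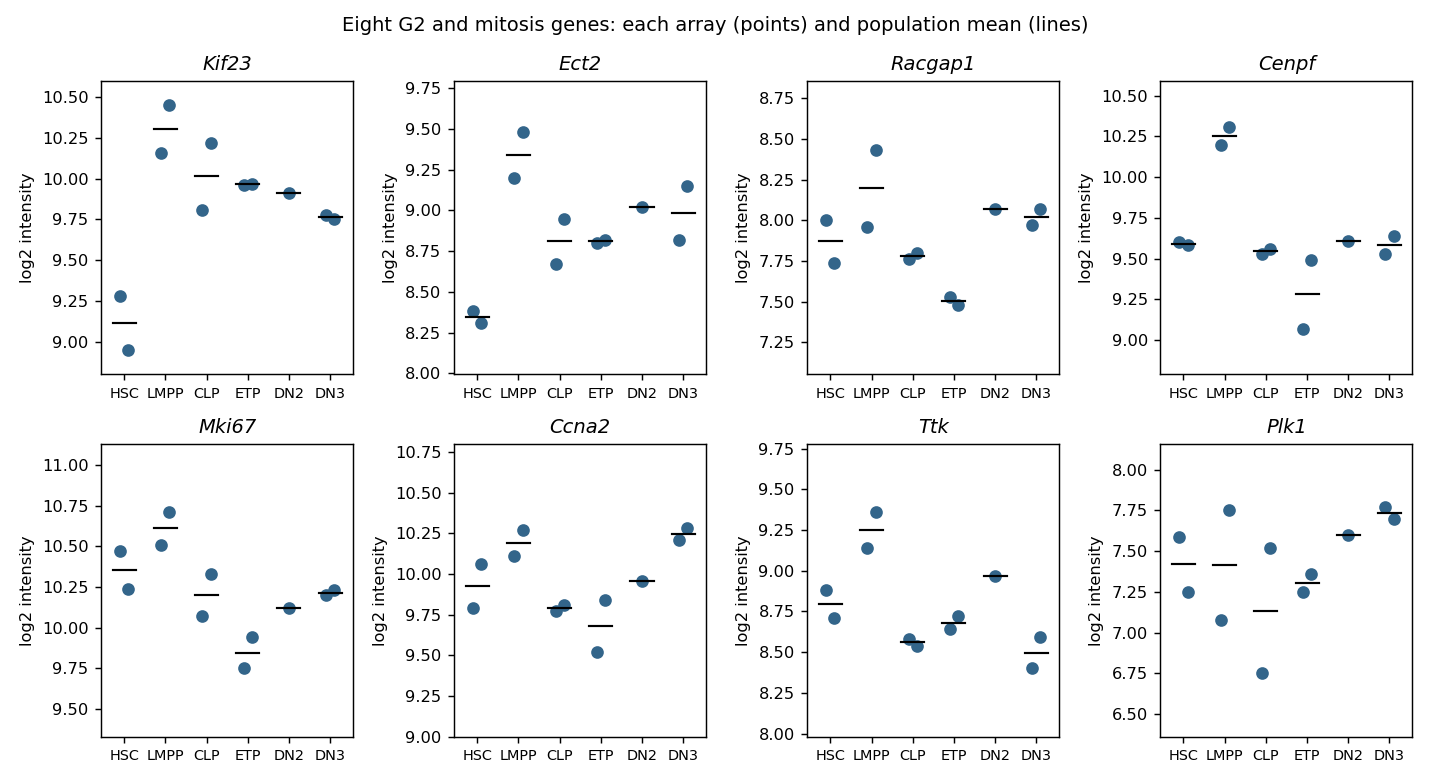
Points are the log2 intensities of single arrays and lines the population means for 8 members; every panel spans the same height. Kif23 and Ect2 are lowest in HSC, Racgap1 and Mki67 in ETP, Cenpf stands out in LMPP, and Ccna2 is as high in DN3 as in LMPP.

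The 9 kinesins all had the higher mean in LMPP than in HSC, 8 of them without overlap, with a median of 0.48, but Kif23 alone passed. Kif18a, which dampens chromosome movement at the metaphase plate, stood at 8.38 and 7.90 in HSC against 8.59 and 8.88 in LMPP (0.59, 95% interval 0.19 to 1.00, limma adjusted p = 0.147). Kif15 and Kif11, which push the spindle poles apart, differed by 0.53 (adjusted p = 0.0667) and 0.50 (adjusted p = 0.208). For Kif11 the HSC arrays read 10.50 and 10.01 and the LMPP arrays 10.61 and 10.89, so the gap within HSC was about as wide as the difference. Cenpe, a motor at the kinetochore, stood at 9.95 and 9.82 in HSC, 10.36 on both LMPP arrays, 9.84 and 9.70 in CLP, 9.75 and 9.96 in ETP, 9.96 in DN2, and 9.81 and 9.97 in DN3. LMPP lay above all others for Cenpe, yet its differences of 0.48 against HSC, -0.60 for CLP minus LMPP and -0.51 for ETP minus LMPP narrowly missed the threshold (adjusted p = 0.0751, 0.0530 and 0.0684). Kif20b differed least from HSC, by 0.20, while Kif2c was the kinesin whose HSC and LMPP arrays overlapped (7.93 and 7.61 against 7.85 and 8.47).

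Among the kinases Nek2, which acts on centrosome separation, rose from 6.94 and 6.62 in HSC to 7.25 and 7.60 in LMPP (0.65 ± 0.15, SE; limma adjusted p = 0.0474). The other 7 kinases did not pass. Aurka, the kinase of centrosomes and spindle poles, had 8.44 and 7.97 in HSC against 8.48 and 9.14 in LMPP (adjusted p = 0.262), while Plk1, a kinase of mitotic entry and exit, differed by -0.0077 (95% interval -0.58 to 0.57). Bub1b, the checkpoint kinase BubR1 and the widest ranging of this group, stood at 9.87 and 9.15 in HSC, 9.82 and 10.21 in LMPP, 9.13 and 9.53 in CLP, 9.16 and 9.33 in ETP, 9.54 in DN2, and 9.70 and 9.80 in DN3. Its HSC arrays lay further apart than the difference of 0.51 to LMPP, which did not pass (adjusted p = 0.366). Cdk1 itself, the kinase at the head of the pathway, stood between 9.85 and 10.35 on all arrays and was highest in DN2. At the kinetochore, the attachment site of chromosomes to the spindle, Cenpf rose from 9.60 and 9.58 to 10.20 and 10.31 (0.66 ± 0.14, SE; adjusted p = 0.0323). The other 5 genes of that group did not pass. Nuf2 and Ndc80, both of the Ndc80 complex, differed by 0.54 and 0.44 without overlap (adjusted p = 0.0893 and 0.0976), while Cdca8 and Cenpi overlapped between HSC and LMPP (0.21, 95% interval -0.23 to 0.65, and 0.23, interval -0.19 to 0.65). The 7 measured genes of cyclins and anaphase control had the smallest median difference of the 6 groups, 0.24, and none passed. Ccnb2, a mitotic cyclin, stood at 10.42 and 10.37 in HSC and 10.63 and 10.81 in LMPP, and Cdc20, an activator of the anaphase-promoting complex, at 8.62 and 8.22 against 8.71 and 8.63. Of the proliferation marker Mki67, a coat protein of mitotic chromosomes, HSC already held 10.47 and 10.24, against 10.51 and 10.71 in LMPP (0.25, 95% interval -0.06 to 0.57, adjusted p = 0.486). The count of 6 became 3 when any 1 array of HSC or ETP was left out, 2 when a DN3 array was left out, and 1 when LMPP replicate 2 was. Cenpf was lost without any 1 of the HSC, LMPP or DN3 arrays (highest adjusted p = 0.17), and Nusap1 without any of these or of the ETP arrays (0.213). Prc1 was lost without LMPP replicate 2 or any 1 of the HSC, ETP or DN3 arrays (0.23). Nek2 was lost without replicate 2 of HSC or of LMPP or any 1 of the CLP, ETP or DN3 arrays (0.237).

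CLP lay below LMPP for most of these genes. Of the 41 genes 40 had the lower mean in CLP, 29 of them with no overlap between the arrays (19.1% of all genes), and the median difference, CLP minus LMPP, was -0.41 (-0.018 over all genes). This comparison shares the LMPP arrays with the one before. In limma 2 genes fell and none rose (4.88%, against 0.542% of all genes called lower). Cenpf fell by 0.71 ± 0.14 on the log2 scale (SE; adjusted p = 0.0452), to 9.53 and 9.56 in CLP. Ttk, the checkpoint kinase also known as Mps1, stood at 9.14 and 9.36 in LMPP against 8.58 and 8.54 in CLP and fell by 0.69 ± 0.13 (adjusted p = 0.0322). Both CLP arrays of either gene lay below both LMPP arrays. Neither call held throughout: 0 of 41 passed when any 1 of the LMPP, CLP or DN3 arrays was left out (highest adjusted p = 0.262 for Cenpf and 0.231 for Ttk), and 1 when an HSC or ETP array was. Next in size were Bub1b and Kif4, a kinesin that acts on chromosome arms and the midzone, both at -0.68 without passing. Espl1, the protease separase and a dim gene here (5.95 to 6.78 over all arrays), was the gene with the higher mean in CLP, by 0.067.

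Between CLP and HSC the median difference was -0.079, with 25 of 41 means lower in CLP. The median was 0.041 without HSC replicate 1 and 0.089 without CLP replicate 1, so its sign rested on single arrays. ETP minus HSC is given beside it, although the comparisons share the HSC arrays. Between ETP and HSC the median was -0.068 with 25 of 41 lower, and 0.035 without HSC replicate 1 and 0.012 without ETP replicate 1.

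ETP, the earliest thymic cells, were compared with the same LMPP arrays and lay below LMPP for 40 of 41 genes, 35 of them without overlap (24.9% of all genes), with a median difference of -0.46 (-0.029 over all genes). In limma 4 genes fell and none rose (9.76%, against 0.868% of all genes called lower). Cenpf stood at 9.07 and 9.49 in ETP and fell by 0.98 ± 0.14 (SE; 1.97-fold, adjusted p = 0.00463), a call that held without any one array. Mki67 stood at 9.75 and 9.94 in ETP, below every array of the other populations, and fell by 0.77 ± 0.14 against LMPP (adjusted p = 0.0181, lost without LMPP replicate 2 or either ETP replicate). Against HSC its difference of -0.51 missed the threshold (adjusted p = 0.0688). Ccnb2 fell by 0.63, to 9.97 and 10.19 (adjusted p = 0.0287), and Ttk by 0.57, to 8.64 and 8.72 (adjusted p = 0.0499). The ETP arrays of both genes lay below the LMPP arrays without overlap. The count of 4 became 2 when a DN3 array was left out, and 1 when LMPP replicate 2 or an ETP array was. Ccnb2 was lost without any 1 of the LMPP, ETP or DN3 arrays (highest adjusted p = 0.174), and Ttk without any of these or of the CLP arrays (0.214). In the group for spindle building and cytokinesis all 8 genes were lower in ETP without overlap, from Racgap1 (-0.69, adjusted p = 0.0529) to Dlgap5, a spindle assembly factor (-0.43), but none passed.

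No gene of the 41 passed between ETP and CLP. The median difference, ETP minus CLP, was -0.053, and 0 of 41 were called in limma, against 2.52% of all genes, with 1 at an unadjusted p under 0.05. That gene was Mki67, at 10.07 and 10.33 in CLP against 9.75 and 9.94 in ETP (difference -0.36, 95% interval -0.67 to -0.05, adjusted p = 0.345). The next in size were Kif2c, a kinesin that depolymerises microtubules (0.32, interval -0.26 to 0.90), and Racgap1 (-0.27, interval -0.62 to 0.08). The sign of the median was reversed without CLP replicate 2 (0.052) or ETP replicate 1 (0.021).

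Within the thymus the single DN2 array was above the ETP mean for 40 of 41 genes, and above both ETP arrays for 36 (32.1% of all genes). The median difference was 0.30, against -0.0023 over all genes, but 0 of 41 passed limma (0.998% of all genes did), with 5 at an unadjusted p under 0.05. Cdca3, which helps to degrade the kinase Wee1 at mitotic entry, stood at 8.18 and 8.66 in ETP and 9.04 in DN2 (0.62, 95% interval 0.05 to 1.18, adjusted p = 0.591). Racgap1 was 0.57 higher (interval 0.14 to 1.00, adjusted p = 0.401) and Ube2c, the ubiquitin-conjugating enzyme of the anaphase-promoting complex, 0.53 higher (interval -0.09 to 1.16). Kif23 was the exception, at 9.91 in DN2 below both ETP arrays. DN2 has no replicate, and these intervals assume that it varies like the other populations.

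At DN3 most cells are known to pause for rearrangement of the T cell receptor beta gene. A link of that pause to the values here was not tested. Compared with the single DN2 array, 32 of 41 genes had the lower mean in DN3. For 25 of them both DN3 arrays lay below the DN2 array (35.1% of all genes). The median difference, DN3 minus DN2, was -0.076, and 0 of 41 passed limma (1.8% of all genes did), with 3 at an unadjusted p under 0.05. Cenpi, a protein of the inner kinetochore, stood at 7.69 in DN2 and 7.14 and 7.07 in DN3 (-0.59, 95% interval -1.11 to -0.07, adjusted p = 0.478). Ttk went from 8.97 to 8.40 and 8.59 (-0.48, interval -0.83 to -0.13, adjusted p = 0.276) and Espl1 from 6.34 to 5.96 and 5.95 (-0.38, interval -0.96 to 0.20). Cenpi, Ttk and Espl1 had the largest differences of the 41, and their lowest population mean fell in DN3. By unadjusted p Kif20b (-0.35) was among the 3, and Espl1 was not.

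Over the whole thymic path, DN3 exceeded ETP for 34 of 41 genes, 24 without overlap (23.6% of all genes), with a median difference of 0.17. In limma 1 gene rose (2.44%, against 2.68% of all genes called higher), Ccna2, the cyclin of S phase and G2. It stood at 9.52 and 9.84 in ETP, 9.96 in DN2, and 10.21 and 10.28 in DN3, so DN3 lay above DN2 and both above ETP, and it was 0.57 ± 0.14 higher in DN3 than in ETP (SE; 1.48-fold, adjusted p = 0.0388). The call was lost without ETP replicate 1, either CLP replicate or either DN3 replicate (highest adjusted p = 0.305), and 2 genes passed without either LMPP replicate. Ube2c (0.60, adjusted p = 0.203), Cdca3 (0.53, adjusted p = 0.214) and Racgap1 (0.51, adjusted p = 0.0969) differed by a like amount without passing. At the other end stood Espl1 (-0.32), Kif23 (-0.20) and Ttk (-0.19). In DN3 Ccna2, Plk1 and Ube2c had their highest population means.

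**Figure D3:**
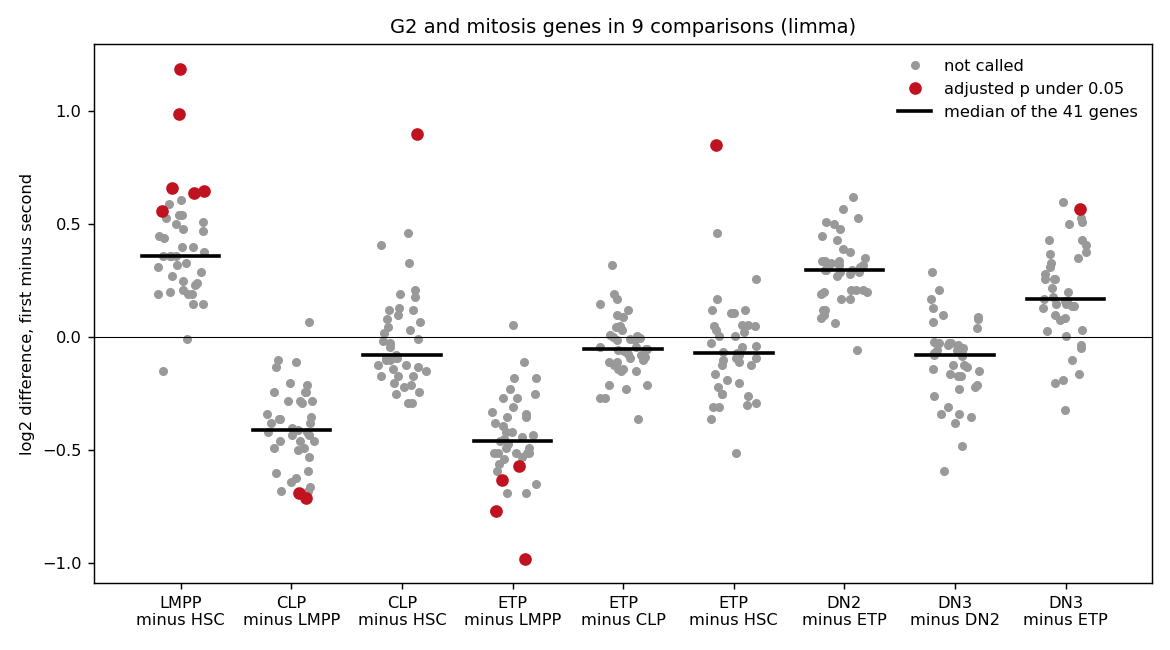
Each point is 1 of the 41 genes, placed at its log2 difference in the named comparison, with red points passing limma at adjusted p under 0.05 and bars at the median. The cloud lies above 0 for LMPP minus HSC and DN2 minus ETP, below 0 for both comparisons with LMPP as the second population, and around 0 where CLP, ETP and HSC are compared with each other.

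Not all members followed the common course. Across the 6 population means, the Pearson correlation of a gene with the mean of the other 40 was lowest for Espl1 (-0.223), Plk1 (0.424), Kif23 (0.475), Cenpa (0.531) and Cenpi (0.580), and highest for Ndc80 (0.967), Bub1 (0.966), Tpx2 (0.962) and Prc1 (0.961). These points share arrays and carry the differences between replicates. Espl1 stood at 6.78 and 5.95 in HSC, 6.21 and 6.23 in LMPP and 5.95 to 6.38 elsewhere, so its highest mean, in HSC, rested on 1 array while the other HSC array was among the lowest. It was a dim gene, with most values near the array medians of 6.01 to 6.12. Plk1 stood at 7.59 and 7.25 in HSC, 7.08 and 7.75 in LMPP, 6.75 and 7.52 in CLP, 7.25 and 7.36 in ETP, 7.60 in DN2, and 7.77 and 7.70 in DN3. In LMPP and in CLP the replicates of Plk1 lay further apart than its population means did (range 0.60). Cenpa, the histone variant that marks centromeres, was steady, from 8.77 on a DN3 array to 9.23 on an LMPP array. Bub1, a checkpoint kinase that followed the common course, stood at 10.12 and 10.13 in LMPP against 9.68 to 9.92 on the other arrays. Top2a, which untangles chromosomes, stood at 11.52 and 11.63 in LMPP and 11.08 to 11.40 elsewhere, and its dimmer probe set at 5.50 to 6.18.

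Further genes of the cell cycle were read from lists. Of 59 other measured G2 and mitosis genes 53 had the higher mean in LMPP than in HSC (median 0.32). In limma 6 rose (10.2%, against 1.23% of all genes). They included Aspm, a spindle pole protein (0.82, adjusted p = 0.0193), Cep55, which acts in abscission (0.81, adjusted p = 0.0108), Depdc1a (0.74) and Neil3, a DNA glycosylase (0.73, adjusted p = 0.005). In CLP against LMPP 2 of the 59 fell (3.39%, against 0.542% of all genes). They were Psrc1 (-0.87) and Cdc25c, a phosphatase that activates Cdk1 (-0.68). In ETP against LMPP 13 of 59 fell (22%, against 0.868% of all genes) and none rose (median -0.37). The falls were led by Aspm (-0.95, adjusted p = 0.00934), Kif14, a kinesin of cytokinesis (-0.91), Cdkn3, a phosphatase of cyclin-dependent kinases (-0.89), and Psrc1 (-0.85). Spc24, a subunit of the Ndc80 complex, differed from its partners Ndc80 and Nuf2: it stood at 9.89 and 9.78 in HSC, 9.69 and 9.54 in LMPP, and 8.68 and 9.11 in ETP, and was the gene of the 59 to fall from HSC to ETP (-0.94, adjusted p = 0.00454). In DN3 against ETP 4 of 59 rose (6.78%, against 2.68% of all genes). They were Ncaph, a condensin subunit (0.68), Spc24 (0.66), Fbxo5, an inhibitor of the anaphase-promoting complex (0.57), and Ska2, a kinetochore protein (0.42).

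Lists for other phases had medians nearer to 0 in the comparisons with LMPP. Over 34 measured S phase genes the median difference, LMPP minus HSC, was -0.06, and in CLP and ETP against LMPP the medians were 0.046 and -0.038. In limma none of the 34 passed in these 3 comparisons, with 2, 3 and 5 at an unadjusted p under 0.05. In DN2 against ETP their median was 0.36 and 33 of 34 had the higher mean. Rrm2, a subunit of ribonucleotide reductase, was 0.83 higher on the single DN2 array. In DN3 against ETP the median was 0.26 and 2 of 34 rose (5.88%, against 2.68% of all genes). They were Rrm2 (0.84, adjusted p = 0.00115) and Tyms, thymidylate synthase (0.51). Among 10 G1 cyclins and kinases none passed in limma in LMPP against HSC or in CLP or ETP against LMPP, with 1, 3 and 1 at an unadjusted p under 0.05. Their medians there were -0.087, 0.21 and 0.16, opposite in sign to those of the 41 members. Ccnd1, a D-type cyclin, stood at 7.27 on both ETP arrays and was 1.29 lower on the single DN2 array, at 5.98. In DN3 against ETP 2 of the 10 were called higher (20%, against 2.68% of all genes) and 1 lower. Those higher were Ccne1 (0.53) and Ccne2 (0.51), cyclins of the start of replication. The 15 subunits and partners of the anaphase-promoting complex had medians between -0.14 and 0.17 in the 9 comparisons, with 1 call, Anapc11 (0.65 in DN3 against ETP). The difference between lists was not tested.

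Of 22 measured regulators of G2 and mitosis transcription (E2F, MuvB, NF-Y and Foxm1 proteins) none passed limma in any of the 9 comparisons, with 1 to 6 at an unadjusted p under 0.05. Their median in LMPP against HSC was -0.042. In limma's F test over the 6 populations 2 of the 22 passed (12.2% of all genes did), both highest in DN2. Rbbp4, a histone-binding MuvB subunit, had means of 8.74 in HSC, 8.75 in LMPP, 8.95 in CLP, 9.01 in ETP, 9.73 in DN2 and 9.45 in DN3 (adjusted p = 0.00699), and Nfyb, a subunit of NF-Y, had 9.09 in LMPP and 9.75 in DN2 (adjusted p = 0.0488). Foxm1 and Mybl2 are given for their known role, and all 4 named here were chosen after their values were seen. Foxm1, a transcription factor of these promoters, stood at 7.70 and 6.71 in HSC, 7.35 and 7.39 in LMPP, 7.01 and 7.41 in CLP, 6.88 and 7.17 in ETP, 7.10 in DN2, and 6.95 and 7.13 in DN3, with HSC overlapping all others. Mybl2, its partner at these promoters, stood at 7.52 and 7.27 in HSC, 6.77 and 7.13 in LMPP, 6.32 and 7.17 in CLP, 7.20 and 7.19 in ETP, 7.53 in DN2, and 7.60 and 7.49 in DN3. Both LMPP arrays of Mybl2 were thus below both HSC arrays.

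**Figure D4:**
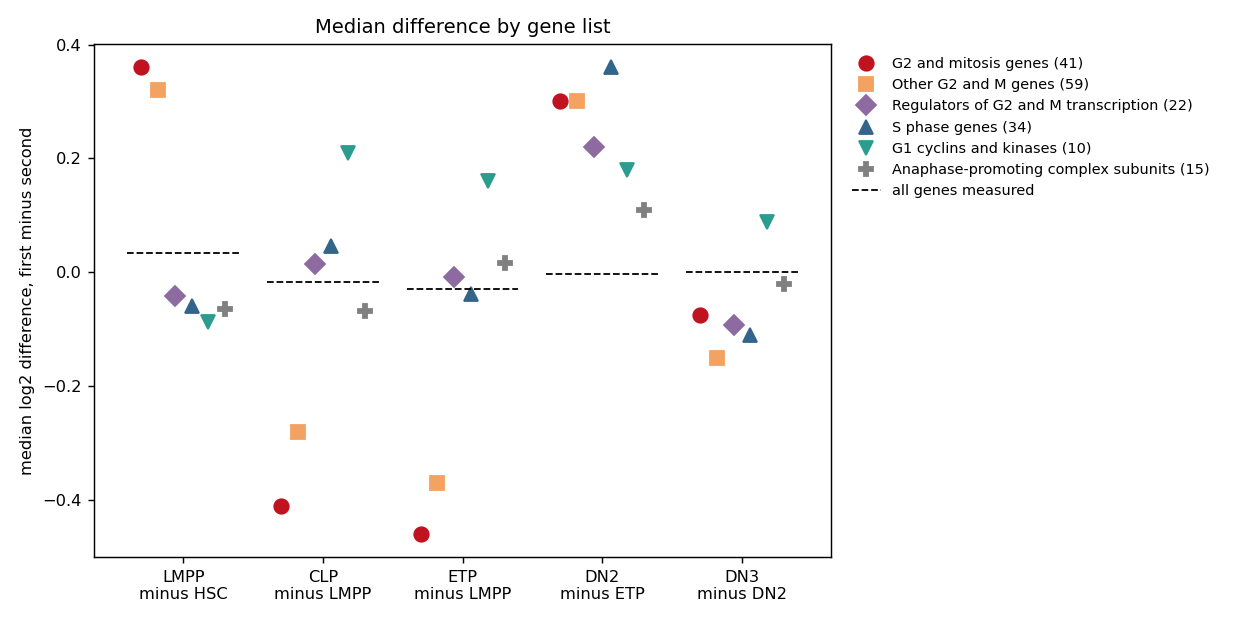
Symbols give the median log2 difference of each gene list in 5 comparisons, with the number of measured genes in brackets, and dashed lines the median over all genes measured. In the 3 comparisons with LMPP the medians of both G2 and mitosis lists lie furthest from the line (0.36 and 0.32 for LMPP minus HSC), while in DN2 minus ETP the S phase genes are at least as high (0.36 against 0.30).

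Of 1633 other genes with a range of at least 1 over population means, those most like the mean course of the 41 over the 6 populations were Prr11 (Pearson r = 0.803), Postn (0.735), Cox7a1 (0.730), Tubg1 (0.705), Mir18 (0.705), Neil3 (0.661), 0610040B10Rik (0.656), Omd (0.624), H3c15 (0.610) and BC016579 (0.601). Of the members themselves only Kif23 (range 1.19) reached that range. Genes that vary as little as the other members could therefore not appear here. Prr11 stood at 8.77 and 8.51 in HSC, 9.38 and 9.60 in LMPP, 9.0 and 9.28 in CLP, 8.49 and 8.47 in ETP, 9.08 in DN2, and 8.85 and 8.77 in DN3. Its LMPP arrays were above all others, as they were for 20 of the 41 members. Tubg1, gamma-tubulin of the centrosome, stood at 7.60 and 8.71 on the LMPP arrays, so its mean there hides a wide gap between replicates.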

How the data were processed

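The authors deposited 1 log2 intensity per probe set and array. Per the submitters' processing notes these were made by RMA, a method that removes background, brings arrays to 1 distribution and combines probes. The version of RMA, the chip annotation and the build were not given in the sources used here. That values are log2 follows from their range (2.07 to 13.77). Of 35556 probe sets 21789 had a single symbol, which gave 19938 genes, each by its brightest probe set. Dim genes were kept. A fit of 6 group means over 11 arrays was made with limma 3.58.1 in R 4.3.3, with 5 residual degrees of freedom and spread pooled over groups. P-values, two-sided, took the Benjamini-Hochberg adjustment over all genes tested, with a call at an adjusted p under 0.05. The fit was tested on simulated data, as LMPP minus HSC. Of 100 genes changed by 1 log2 unit 69% were recovered, and of 100 changed by 2 units 99%, with 18 false calls. Smaller changes, the size of most differences described here, were not simulated. The number of arrays limits the precision. Members and lists were chosen with earlier results of these data known. Lists (cell cycle phases, regulators and markers of blood, T, B, erythroid, myeloid and stromal cells) were described by counts and medians, and genes were named by a rule: any member, with statistics first for called ones, or for the 3 largest differences where none was called, for the widest ranging of each group and for those least like the rest; up to 4 called genes of other lists, and the 10 genes most like the members. Promoter windows came from RefSeq (GRCm38.p6) and were searched in Python 3.11.15, with the first window used where a gene had several. Alternatives were a filter on dim genes, further normalization, the mean of probe sets, a trended robust prior, array weights, a replicate block, a stricter threshold and leaving out each array.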

Additional observations from a re-analysis of the deposited data

How the results depend on the processing

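The directions held better than the calls. Under the filter on dim genes, quantile normalization once more, centring on array medians and the mean of probe sets, 39 or 40 of the 41 genes were higher in LMPP than in HSC and 40 lower in CLP and in ETP than in LMPP. The medians ran from 0.28 to 0.49 (LMPP minus HSC), -0.51 to -0.26 (CLP minus LMPP), -0.56 to -0.36 (ETP minus LMPP), 0.21 to 0.38 (DN2 minus ETP), -0.14 to -0.083 (DN3 minus DN2) and 0.092 to 0.27 (DN3 minus ETP) when arrays were left out. They ran from -0.11 to 0.089 for CLP minus HSC (0.041 without HSC replicate 1), -0.17 to 0.052 for ETP minus CLP (0.021 without ETP replicate 1) and -0.14 to 0.035 for ETP minus HSC (0.012 without ETP replicate 1), with reversed signs. Counts of calls depended on the setting. Quantile normalization once more gave 14 in the F test (6 as reported), 13 in LMPP against HSC (6), 6 in CLP against LMPP (2), 17 in ETP against LMPP (4), 2 in CLP against HSC (1) and 2 in ETP against HSC (1). Centring gave 3, 2, 0, 2, 1 and 1 in that order, and a threshold of 0.01 gave 1, 2, 0, 1, 1 and 0, with 0 in DN3 against ETP. Centring also moved the share of higher genes among all genes called from 52.6% to 63.5% in CLP against LMPP. The trended robust prior gave 10 in the F test and 2 in ETP against HSC, and array weights 2 in LMPP against HSC, 1 in CLP against LMPP and 2 in DN3 against ETP. Leaving out arrays gave 1 to 8 in the F test, 1 to 6 in LMPP against HSC, 0 to 2 in CLP against LMPP, 1 to 6 in ETP against LMPP, 0 to 1 in CLP and in ETP against HSC, and 0 to 2 in DN3 against ETP. The cause of these shifts was not tested. The labels do not say whether the replicate numbers pair the arrays. Over all genes, deviations of same-numbered arrays correlated from -0.258 to 0.283, above 0.1 in 4 of 10 pairs. Of the 41 members, replicate 2 was the higher for 34 in LMPP, 33 in CLP, 33 in ETP and 25 in DN3, but for 11 in HSC. With the replicate block 4 genes passed in LMPP against HSC (Nek2 and Nusap1 did not), 3 in ETP against LMPP (Ttk did not) and 6 in the F test.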
